A study of Mus musculus with 11 samples.

Results

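Oxidative phosphorylation is carried out by 5 protein complexes of the inner mitochondrial membrane, and most of their subunits are encoded by nuclear genes. Here the nuclear genes for these subunits were followed in blood stem and progenitor cells of 3 Phf6 genotypes. They were taken from the gene count table by symbol (Nduf, Sdh, Uqcr, Cyc1, Cox4 to Cox8 and Atp5 names) and kept where their average over all 11 libraries reached 1 CPM (count per 1000000 counts of the library). Of 55291 symbols in the table, 85 matched and 80 reached that level. They comprise 35 genes of complex I, 4 of complex II, 9 of complex III, 15 of complex IV and 17 of complex V; Ndufa4 was counted with complex IV, where its protein resides. All 80 were among the 17183 genes tested.

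RNA sequencing had been done on Lin-cKit+Sca-1+ (LSK) bone marrow cells, a fraction enriched in stem cells and multipotent progenitors of blood, sorted from individual C57BL/6 mice. The groups were wild type (WT, n = 4), Phf6 knock out (KO, n = 3) and Phf6R274X Tg (Tg, n = 4). Phf6 encodes a chromatin protein mutated in human leukaemia. The labels give no age or sex, and they do not name the promoter or the cell type of the Tg allele, nor whether the knock out acts in all cells.

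Complex I takes electrons from NADH, complex II takes them from succinate, complex III passes them through cytochrome c1 to cytochrome c, and complex IV hands them to oxygen. Complexes I, III and IV pump protons, and complex V, the ATP synthase, uses the proton gradient to make ATP. Complexes I, III, IV and V combine these nuclear subunits with a few subunits read from mitochondrial DNA, while complex II is wholly nuclear. Quiescent blood stem cells are known to rely little on respiration, and mitochondrial activity rises as they enter differentiation.

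The transcription factors NRF1, GABP (an ETS factor), YY1, CREB and the oestrogen-related receptors are known to act on many of these genes, and their motifs were searched in the RefSeq promoters (GRCm38.p6; 250 bases before to 50 bases after the start; 70 windows of 65 of the 80 genes; both strands). The YY1 motif AAGATGGCG was present in 10% of these windows and in 1.4% of all 32851 windows of the table. The NRF1 motif GCGCATGCG was present in 11.4% against 1.75%, the ETS core CCGGAAGT in 7.14% against 3.89%, the CREB motif TGACGTCA in 5.71% against 1.79%, and the receptor motif TCAAGGTCA in 2.86% against 0.423%. At least 1 of the 5 motifs was in 34.3% of the windows of these genes and in 8.63% of all windows. These matches describe the sequence only. The 7 YY1 matches are shown because 6 of them have nearly the same place, with the motif's first base at position 23 to 36 counted from the start as 1; the exception is Atp5j, at -88. The motif contains ATG, the letters of a start codon. Whether the shared place is that of the translation start was not tested. Capitals mark the motif and up to 10 bases flank it on each side.
Ndufc1, chr3:51408915-51408943, minus strand: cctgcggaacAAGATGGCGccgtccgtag
Atp5j2, chr5:145191500-145191528, minus strand: ccaggacttcAAGATGGCGtcactcggtg
Ndufs7, chr10:80249463-80249491, plus strand: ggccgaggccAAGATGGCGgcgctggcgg
Ndufa9, chr6:126849097-126849125, minus strand: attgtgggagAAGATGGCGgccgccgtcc
Ndufs6, chr13:73328433-73328459, minus strand: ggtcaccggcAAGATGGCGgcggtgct
Ndufs4, chr13:114388045-114388069, minus strand: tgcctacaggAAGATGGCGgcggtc
Atp5j, chr16:84835046-84835074, minus strand: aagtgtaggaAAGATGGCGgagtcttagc

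NRF1 matches lay in 8 windows, at places from -241 (Atp5l) to 31 (Uqcrc1). Capitals again mark the motif, which reads the same on both strands where it has its full length. They are shown for the members of each complex that had one, since NRF1 is the regulator most closely tied to this gene group.
Ndufa8, chr2:36049329-36049357, minus strand: tcgctggagaCGCATGCGCagatggtacc
Ndufa11, chr17:56717692-56717721, plus strand: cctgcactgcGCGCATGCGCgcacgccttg
Uqcrc1, chr9:108936668-108936697, plus strand: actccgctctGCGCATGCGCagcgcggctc
Uqcr11, chr10:80406808-80406836, minus strand: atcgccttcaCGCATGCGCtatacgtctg
Cox6a1, chr5:115349101-115349130, minus strand: caggaacgggGCGCATGCGCgctctcgctc
Atp5k, chr5:108434430-108434459, minus strand: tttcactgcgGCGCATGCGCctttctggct
Atp5g2, chr15:102671070-102671099, minus strand: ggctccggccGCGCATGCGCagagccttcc
Atp5l, chr9:44920965-44920992, minus strand: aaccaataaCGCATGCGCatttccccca

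The libraries held 20990446 to 45632018 counts, and 139621 to 336379 of them fell on the 80 genes. Phf6 was at 109 to 145 CPM in WT, 15.1 to 24.0 in KO and 168 to 277 in Tg libraries. The 8 LSK marker genes, among them Kit, Ly6a and Cd34, summed to 2094 to 3025 CPM over all libraries. Marker genes of the neutrophil lineage numbered 9, among them Mpo and Elane, and all 9 were detected. They summed to 1441 to 3526 CPM in WT, 3737 to 4772 in KO and 5021 to 23130 in Tg libraries. Mpo, Elane, Prtn3 and Ctsg carry most of this sum, and each was higher in every Tg library than in every WT library. S100a8 overlapped, at 2.29 to 40.0 CPM in WT and 29.0 to 458 in Tg, as did S100a9, at 3.12 to 38.8 and 12.2 to 109. The late granule genes Ltf, Ngp and Camp did not follow: Ltf was at 0.867 to 3.45 CPM in WT and 0.751 to 2.09 in Tg, Ngp at 1.54 to 13.2 and 0.872 to 11.4, and Camp at 0.996 to 9.997 and 2.18 to 11.015. B cell markers (8 genes) summed to 109 to 1010 CPM in WT, 255 to 421 in KO and 37.0 to 120 in Tg libraries. Xist, which is read from the inactive X chromosome, was at 50 to 53.8 CPM in WT and 32.7 to 40.3 in KO but at 0.0307 to 0.297 in Tg libraries, so that sex and the Tg genotype cannot be told apart. The sum of 4 Y-linked genes ran from 49.9 to 367 CPM over the Tg libraries. In WT replicates 1 to 4 it was 133, 141, 0.0642 and 21 CPM. The KO libraries had 114, 1.74 and 0.0329 CPM. WT replicates 1, 2 and 4 and KO replicate 1 thus held both Xist and Y-linked counts, although the labels speak of individual mice; why was not tested. On the X chromosome are 3 of the 80 genes: Ndufa1, Ndufb11 and Cox7b.

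Expressed per kb of each gene's main annotated transcript, the complexes differed in level. The median over genes was 51.6 CPM per kb for complex I, 71.2 for complex II, 110 for complex III, 144 for complex IV and 132 for complex V. The highest levels were those of the catalytic beta subunit of the ATP synthase, Atp5b, at 450 CPM per kb, and of its alpha subunit, Atp5a1, at 330. In complex IV the common isoform of subunit 4, Cox4i1, was highest at 314, followed by Cox8a at 249 and Cox6c at 215. In complex III the hinge protein Uqcrh led with 202, and in complex I the accessory subunit Ndufa7 led with 90.0. The 80 transcripts were short, with a median of 751.5 bases against 2472 for all genes tested, and 52 of the 80 were under 1000 bases. Atp5g1, at 13.8 CPM per kb, stands low because its annotated main transcript is 4660 bases long.

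**Figure D1:**
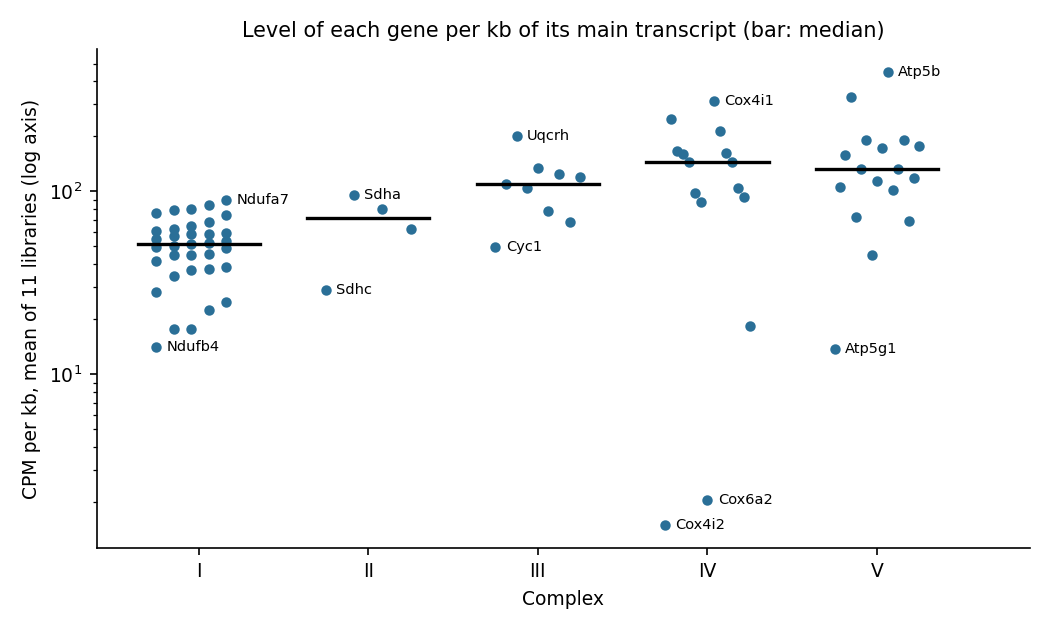
Level of each of the 80 genes as CPM per kb of its main transcript, mean of 11 libraries, on a log axis; each point is a gene and each bar the median of its complex. Complex I has the lowest median at 51.6, Atp5b of complex V is the highest gene at 450, and Cox4i2 and Cox6a2 of complex IV lie far below the rest.

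The lung, muscle and testis isoforms of complex IV were low in these cells. Cox4i1 was at 314 CPM per kb and the lung and hypoxia isoform Cox4i2 at 1.49. Cox6a1 was at 160 and the heart and skeletal muscle isoform Cox6a2 at 2.06. Cox6b1 was at 161 and the testis isoform Cox6b2 at 18.4. Cox4i2 (mean 1.08 CPM) and Cox6a2 (1.40 CPM) were also the members nearest to the inclusion limit. Just outside it were the muscle isoform Cox7a1 (0.225 CPM) and Cox6c2, annotated as a pseudogene (0.132 CPM). Cox7b2 had 1 count in all, and Cox8b and Cox8c had 0, which allows up to 3 counts over all libraries; this covers counting error only. Of the c-subunit genes of the ATP synthase, which encode the same mature protein, Atp5g3 was at 192 CPM per kb, Atp5g2 at 102 and Atp5g1 at 13.8. The order of the last 2 depends on the annotated lengths, 441 bases for Atp5g2 and 4660 for Atp5g1. Without division by length, Atp5g3 averaged 137 CPM, Atp5g1 64.0 and Atp5g2 44.8.

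In KO against WT cells, 72 of the 80 genes had a log2 fold change above 0 (48.8% of all genes tested did), by a small amount, and none passed the test. The median log2 fold change was 0.15, beside -0.0053 over all genes tested, and single genes ranged from -0.12 (the complex I accessory subunit Ndufa5) to 1.06 (Cox4i2). Complex IV had the largest median, 0.27, with 15 of 15 genes above WT. The medians were 0.15 for complex I (30 of 35 above), 0.11 for complex II (4 of 4), 0.15 for complex III (8 of 9) and 0.12 for complex V (15 of 17). With edgeR's quasi-likelihood test and Benjamini-Hochberg adjustment, called at an adjusted p below 0.05, 0 of 80 were called, beside 0.0233% of all genes tested. At an unadjusted p below 0.05 there were 4 higher genes and 0 lower, beside 3.33% and 3.75% of all genes; DESeq2 and limma-voom also called 0. In bulk RNA of sorted cells, more cells of a kind with high levels and more RNA per cell cannot be told apart.

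Libraries of WT and KO did not overlap for 3 of the 80 genes, all higher in KO, beside 3.79% of all genes tested. The first, Ndufa7, an accessory subunit of complex I (chr17:33824572-33838317, plus strand), was at 37.5, 41.9, 49.5 and 39.8 CPM in WT and at 50.3, 54.1 and 54.6 in KO. Its log2 fold change was 0.33 (SE 0.11, unadjusted p = 0.0107, edgeR adjusted p = 0.594), and the highest WT library came within 1 CPM of the lowest KO library. Cox6a1, the common isoform of subunit 6a of complex IV, was at 70.0, 73.6, 93.7 and 83.9 CPM in WT and at 93.8, 100 and 109 in KO. Its log2 fold change was 0.33 (SE 0.14, edgeR adjusted p = 0.689), and the gap between the groups was again narrow. The third, Cox4i2, was low everywhere and met the inclusion limit only through its KO and Tg levels, as given with the Tg comparison.

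Other genes with the largest differences in KO also overlapped between the groups. Atp5g1 had a log2 fold change of 0.32 (SE 0.14, unadjusted p = 0.0438, edgeR adjusted p = 0.692), the largest of complex V. The accessory subunit Ndufb8 led complex I at 0.36 (SE 0.20) and the small subunit Uqcr10 led complex III at 0.29 (SE 0.20). Among the 4 genes of complex II the values were 0.0109 for the flavoprotein Sdha, 0.12 for the iron-sulfur protein Sdhb, and 0.10 and 0.17 for the membrane anchors Sdhc and Sdhd. The standard error over the 80 genes had a median of 0.146, about the size of the median difference.

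In Tg against WT cells the picture was similar: 67 of 80 genes had a log2 fold change above 0 (50.8% of all genes), with a median log2 fold change of 0.14 (0.0052 over all genes), and none was called by edgeR's quasi-likelihood test, beside 4.92% of all genes. Tg against WT and KO against WT share the WT libraries, so their values are not independent. The medians were 0.14 for complex I (32 of 35 above WT), 0.028 for complex II (3 of 4), 0.21 for complex III (6 of 9), 0.20 for complex IV (13 of 15) and 0.075 for complex V (13 of 17). At an unadjusted p below 0.05, 10 genes were higher and 1 lower, beside 10.9% and 11.1% of all genes. DESeq2 called 2 members in this comparison, Cox4i2 (adjusted p = 0.03) and Cox7a2l (adjusted p = 0.0218), where it called 11.1% of all genes, and limma-voom called 0.

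Cox4i2 (chr2:152754173-152765037, plus strand), the isoform of subunit 4 known from lung and induced by low oxygen, was at 0.604, 0.277, 1.01 and 0.527 CPM in WT. It was at 1.27, 1.47 and 1.07 in KO and at 1.88, 1.51, 1.18 and 1.14 in Tg. Every KO and Tg library thus lay above every WT library, at levels near 1 CPM. In Tg it was the 1 member whose libraries all lay above WT, beside 4.5% of all genes. Its mean was 0.606 CPM in WT, 1.27 in KO and 1.43 in Tg, so it reached the inclusion limit of 1 CPM only through KO and Tg. Its membership thus depends on the difference itself, and its place in counts of members lends that difference no support. The log2 fold change was 1.06 in KO (SE 0.39, edgeR adjusted p = 0.649) and 1.23 in Tg (SE 0.37, edgeR adjusted p = 0.0775). Its partner isoform Cox4i1 averaged 210 ± 29.2 CPM (SD, n = 4) in WT, 254 ± 16.1 (n = 3) in KO and 242 ± 37.7 (n = 4) in Tg.

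Uqcrq, a small subunit of complex III (chr11:53427922-53430831, minus strand), was at 42.7, 41.0, 57.9 and 46.7 CPM in WT, at 41.4, 50.6 and 53.0 in KO, and at 74.6, 88.5, 50.7 and 50.9 in Tg. Tg replicates 1 and 2 were above every other library, while replicates 3 and 4 lay among the KO and WT values. The log2 fold change was 0.49 against WT (SE 0.19, edgeR adjusted p = 0.146) and 0.45 against KO (SE 0.20, edgeR adjusted p = 0.217). Ndufb7, an accessory subunit of complex I, had the same outline: 27.1, 33.7, 43.8 and 31.4 CPM in WT, 39.8, 42.5 and 44.3 in KO, and 46.3, 57.9, 39.0 and 37.9 in Tg. Its log2 fold change in Tg was 0.41 against WT (SE 0.16, edgeR adjusted p = 0.159), with overlap between the groups. Cox7a2, the common isoform of subunit 7a, was 0.42 higher in Tg on the log2 scale (SE 0.15, edgeR adjusted p = 0.127), and the core subunit Uqcrc1 0.30 (SE 0.14, edgeR adjusted p = 0.22).

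Cox7a2l fell in Tg cells compared with KO cells, and was the 1 member that edgeR called in any of the 3 comparisons. It encodes a protein also named SCAF1 that helps to join complexes III and IV into supercomplexes, and it is no core subunit of complex IV; C57BL/6 mice are known to carry a shorter form of the protein. The gene (chr17:83501918-83517330, minus strand, GRCm38) was at 120, 137, 137 and 129 CPM in Tg. The KO libraries were at 177, 183 and 176, and the WT libraries at 182, 149, 140 and 175. Every Tg library was below every KO and WT library; the KO values lay within or just above the WT range. It was the 1 member with all Tg libraries lower in either comparison, beside 5.34% of all genes against WT and 11% against KO. Against KO the log2 fold change was -0.45 (SE 0.10, edgeR quasi-likelihood adjusted p = 0.0226). Of all genes tested, 5.69% were called in this comparison, 3.06% in the lower direction. Against WT the value was -0.30 (SE 0.089, edgeR adjusted p = 0.0734). The difference between KO and WT was 0.14 (SE 0.096, edgeR adjusted p = 0.801).

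The call for Cox7a2l was lost when certain single libraries were left out. Without KO replicate 1, 2 or 3, or without Tg replicate 1, the log2 fold change against KO stayed between -0.46 and -0.41 while the edgeR adjusted p rose to 0.0756, 0.0943, 0.0694 and 0.067. With the replicate block it was -0.47 (adjusted p = 0.0815). All genes called in this comparison numbered 978 in the main fit. They numbered 355, 287, 359 and 403 without those libraries in turn, and 303 with the block. Cox7a2l stayed called without Tg replicate 2, 3 or 4 (edgeR adjusted p = 0.0433, 0.0312 and 0.0467). DESeq2 and limma-voom called it too (adjusted p = 0.000672 and 0.0251). A pseudogene, Gm6969, matches 342 bases of its transcript at 97.953% identity; its own row had a mean of 1.44 CPM and 0.347 to 5.71 in Tg libraries. None of the 5 motifs lay in the RefSeq window of Cox7a2l, of which the 100 bases before the start are given because it is the called member.
Cox7a2l, chr17:83514334-83514433, minus strand, GRCm38.p6: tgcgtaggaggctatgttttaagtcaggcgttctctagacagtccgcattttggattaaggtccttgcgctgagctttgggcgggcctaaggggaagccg

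**Figure D2:**
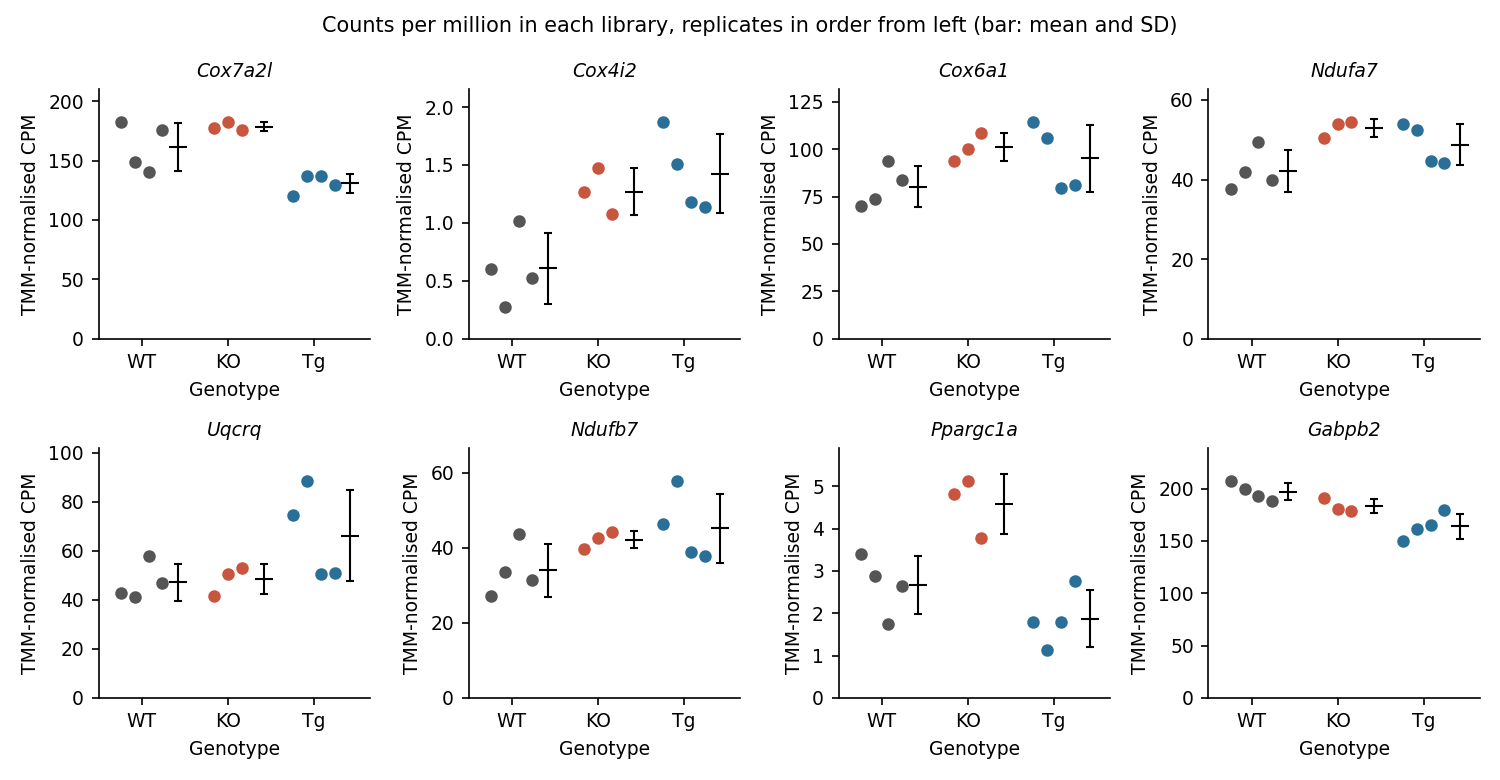
TMM-normalised CPM of 6 nuclear subunit genes and of the regulators Ppargc1a and Gabpb2 in each library; points are libraries in replicate order, bars the mean and SD, and each axis starts at 0. Every Tg point of Cox7a2l (120 to 137) lies below every KO (176 to 183) and WT point (140 to 182), and Tg replicates 1 and 2 stand above the other libraries for Uqcrq.

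Between Tg and KO the median log2 fold change of the members was -0.032 (0.013 over all genes), and 35 of 80 genes were above 0, beside 52% of all genes. With 1 surrogate variable in the model the median was -0.17, beside -0.0040 over all genes, and 7 of 80 genes were above 0. In complex V, 15 of 17 genes were lower in Tg, with a median of -0.056 and the lowest value, -0.19 (SE 0.11, edgeR adjusted p = 0.372), for the gamma subunit Atp5c1. The medians were 0.0086 for complex I, -0.059 for complex II, 0.041 for complex III and -0.00019 for complex IV. The muscle isoform Cox6a2 had the lowest fitted value, -0.90 (SE 0.41, edgeR adjusted p = 0.231), at 2.58, 2.19 and 0.905 CPM in KO and 0.575, 0.998, 1.25 and 1.26 in Tg. These groups overlapped.

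**Figure D3:**
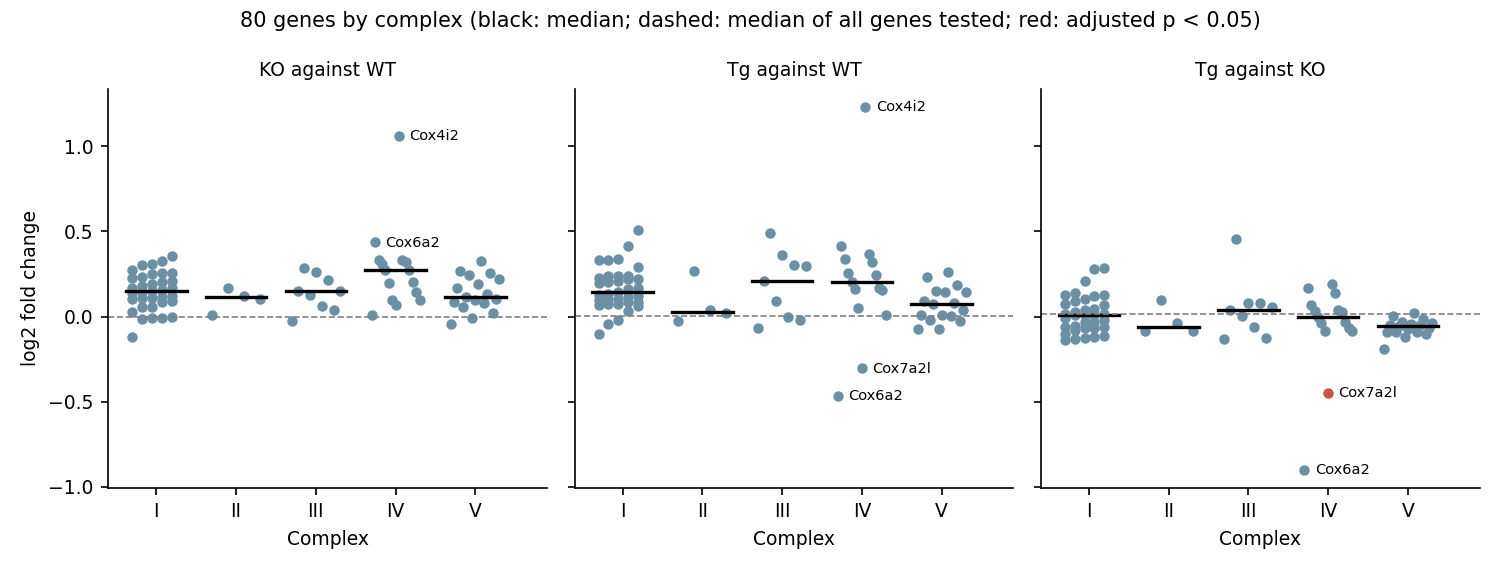
Log2 fold changes of the 80 genes by complex for the 3 comparisons; each point is a gene, black bars are medians and the dashed line is the median of all genes tested. Most points lie above the dashed line against WT, complex IV has the highest median in KO (0.27), and Cox7a2l in Tg against KO is the 1 point with an adjusted p below 0.05.

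Libraries of 1 genotype differed from each other in nearly all of the 80 genes together. WT replicate 3 held the highest WT value for 78 of 80 genes. In KO, replicate 3 was highest for 65 of 80 and replicate 1 lowest for 63. In Tg, replicate 2 was highest for 50 and replicate 1 for 29, while replicates 3 and 4 were lowest for 33 and 45. The mean log2 CPM over the 80 genes had an SD of 0.187 in WT (n = 4, mean 5.76), 0.0718 in KO (n = 3, mean 5.94) and 0.19 in Tg (n = 4, mean 5.91). By library it was 5.68, 5.60, 6.03 and 5.72 in WT, 5.86, 5.95 and 6.00 in KO, and 6.04, 6.11, 5.75 and 5.76 in Tg. WT replicate 3 was thus above all KO libraries, and Tg replicates 3 and 4 were below them.

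WT replicate 3 was the highest WT library in each of the 5 complexes, and Tg replicates 1 and 2 stood above replicates 3 and 4 in each. For complex I the mean log2 CPM was 5.26 ± 0.192 in WT (SD, n = 4), with replicate 3 at 5.55, 5.35 to 5.50 in KO, and 5.58, 5.61, 5.26 and 5.28 in Tg. For complex IV the KO libraries stood closest together, at 5.66, 5.74 and 5.71, against 5.39, 5.19, 5.67 and 5.42 in WT. Only WT replicate 3 reached into the KO range there. For complex V the values were 6.54, 6.44, 6.84 and 6.51 in WT, 6.64, 6.72 and 6.82 in KO, and 6.76, 6.85, 6.50 and 6.51 in Tg.

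**Figure D4:**
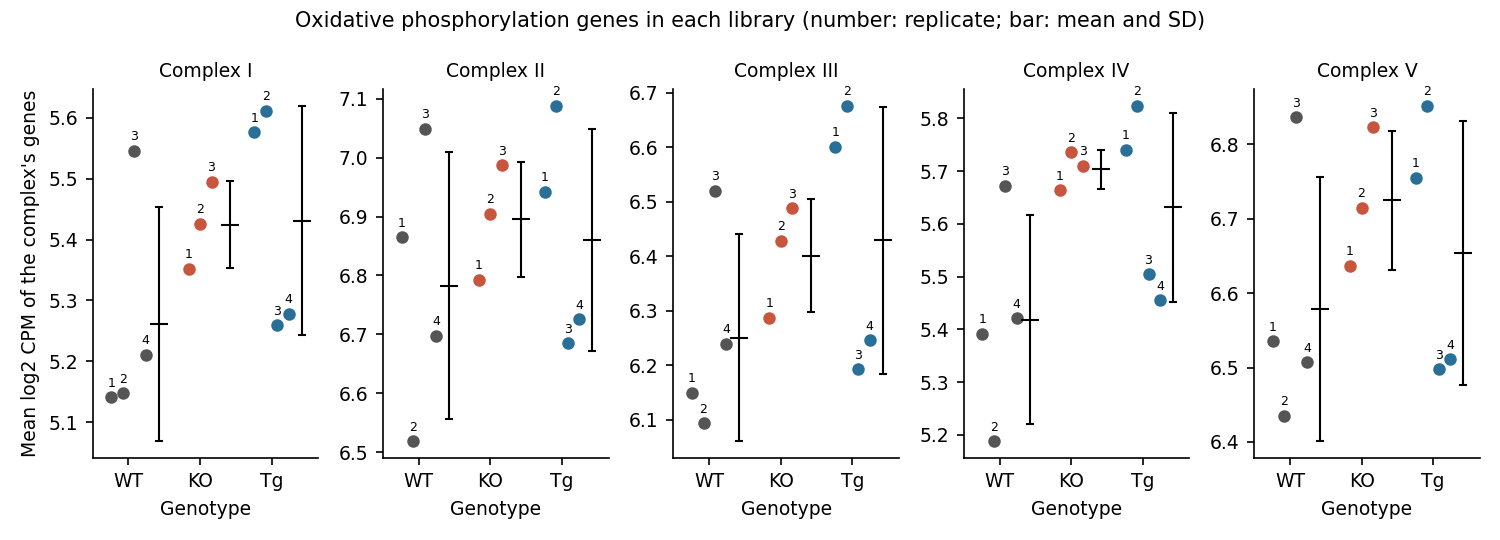
Mean log2 CPM over the genes of each complex in every library; points are libraries with their replicate number, and bars the mean and SD of each genotype (n = 4, 3 and 4). WT replicate 3 lies above the other WT libraries in all 5 panels, and Tg replicates 1 and 2 lie above replicates 3 and 4.

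In Tg, the libraries with higher levels also had the higher sums of neutrophil-lineage marker genes. These were 23130 and 19520 CPM in replicates 1 and 2 against 5021 and 9628 in replicates 3 and 4. Late granule genes of the same list differed in this: Ltf was at 0.751 and 0.966 CPM in replicates 1 and 2 against 1.35 and 2.09, Ngp at 0.872 and 6.49 against 3.42 and 11.4, and Camp at 3.08 and 6.17 against 2.18 and 11.015. The summed level of these 9 genes was 2670 CPM in WT replicate 3, between 3526 in replicate 4 and 2022 in replicate 1. WT replicate 3 had the lowest WT sum of B cell markers (109 CPM, others 262 to 1010) and of macrophage markers (32.8 CPM, others 114 to 218). Y-linked transcripts were near 0 in WT replicate 3 (0.0642 CPM) and in KO replicate 3 (0.0329 CPM), the KO library that was highest for 65 of 80 genes. KO replicate 2 was also low, at 1.74 CPM, and was highest for 14 of 80. Tg replicates 1 and 2, with 192 and 49.9 CPM, had the highest mean log2 CPM of all libraries. Tg replicates 3 and 4 had more Y-linked counts, 333 and 367 CPM, and lower mean log2 CPM. Likewise, KO replicate 1 (114 CPM) had the lowest mean log2 CPM in KO, and WT replicates 1 and 2 (133 and 141 CPM) the lowest in WT. The part of these differences in the subunit levels was not tested.

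WT replicate 3 touches every comparison with WT. Without it, 79 of 80 genes were above WT in KO, with a median log2 fold change of 0.24; 32 genes were higher at an unadjusted p below 0.05, beside 5.95% of all genes in that fit, and 0 were called, beside 0.00586%. In Tg, 73 of 80 were above WT with a median of 0.23, and 3 were called by edgeR, beside 6.31% of all genes. Cox4i2 (1.6, adjusted p = 0.0293) and Ndufb7 (0.55, adjusted p = 0.0457) rose and Cox7a2l (-0.37, adjusted p = 0.0303) fell. Cox4i2 is a member only through its KO and Tg levels. Without WT replicate 2, the lowest library, the KO median was 0.096 with 63 of 80 genes above WT. Without Tg replicate 2 the Tg median was 0.052 with 55 of 80 above WT, and with 1 surrogate variable in the model it was 0.029 with 44 of 80.

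The mitochondrially encoded subunits did not have the same outline. Of the 13 genes, 8 were tested. The untested mt-Nd4l, mt-Co2, mt-Co3, mt-Atp6 and mt-Atp8 had 2 to 63 counts each over all libraries, while mt-Co1 had 1996298 and mt-Cytb 685248. Why the untested rows were near 0 was not tested, and their counts are not read as low expression. In KO, 0 of 8 were above WT, with a median of -0.13, while 90% of the nuclear subunits were above. In Tg, 5 of 8 were above WT (median 0.028), and 8 of 8 were above KO (median 0.21). None of the 8 was called by edgeR, and the difference between nuclear and mitochondrial subunits was not tested. The lowest in KO was mt-Nd5, a proton-pumping subunit of complex I, at -0.24 (SE 0.17, edgeR adjusted p = 0.815).

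Genes that build and feed the complexes showed small differences as well. Assembly factors (51 tested) had medians of 0.09 in KO and 0.16 in Tg against WT, with none called by edgeR; the complex IV factors Coa3 in KO (0.37, SE 0.14, adjusted p = 0.662) and Coa6 in Tg (0.51, SE 0.16, adjusted p = 0.088) had the lowest p. DESeq2 called Coa6 in Tg (adjusted p = 0.0242). Genes of the mitochondrial ribosome (74 tested) had medians of 0.10 and 0.091, with 63 and 55 genes above WT. Citrate cycle genes (13 tested) had medians of 0.064 and 0.10. Coenzyme Q synthesis genes (13 tested) had medians of 0.041 and 0.11. The electron carriers and nucleotide exchangers (11 tested) had medians of 0.089 and 0.0057. Cytoplasmic ribosomal protein genes, which are also short and abundant, had 71 of 82 genes above WT in KO (median 0.10), 42 of 82 in Tg (0.0072), and 8 of 82 above KO in Tg (-0.11). Over these 6 lists and the mitochondrially encoded subunits, edgeR called 0 genes in any of the 3 comparisons, with 13, 31 and 8 of 252 at an unadjusted p below 0.05 in KO against WT, Tg against WT and Tg against KO. Of all genes, 3.33% and 3.75% were higher and lower at that p in the first comparison, 10.9% and 11.1% in the second, and 10.7% and 10.9% in the third. DESeq2 called 0, 10 and 2 of the 252, beside 11.1% of all genes in the second comparison and 11.2% in the third, and limma-voom called 0 in each.

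**Figure D5:**
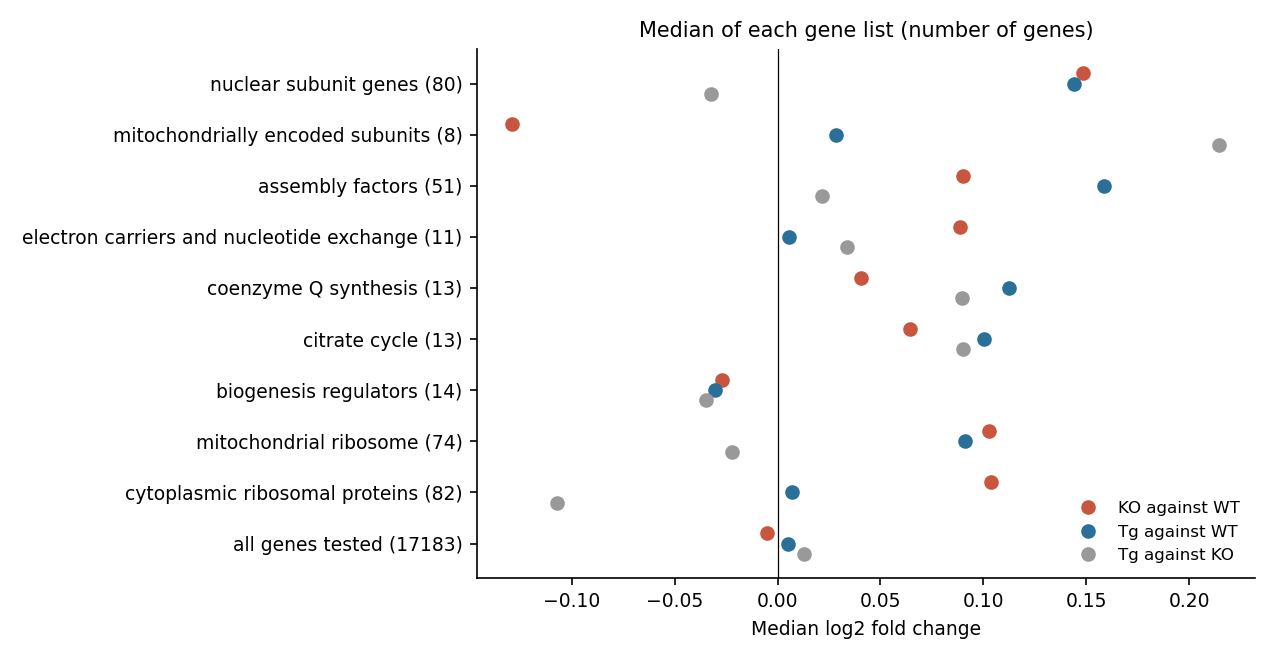
Median log2 fold change of the nuclear subunit genes, of 8 related gene lists and of all genes tested, with the number of genes in brackets; colours give the 3 comparisons. Nuclear subunits lie near 0.15 against WT in both genotypes, and the mitochondrially encoded subunits lie at -0.13 in KO.

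Among 14 regulators of mitochondrial biogenesis that were tested, 2 were called by edgeR, both lower in Tg: 1 of 14 against KO, beside 5.69% of all genes, and 1 of 14 against WT, beside 4.92%. Ppargc1a encodes the coactivator PGC-1alpha, which raises transcription of respiratory genes. It was at 4.83, 5.13 and 3.79 CPM in KO, at 1.80, 1.13, 1.80 and 2.77 in Tg, and at 3.40, 2.89, 1.75 and 2.64 in WT. Every Tg library lay below every KO library, and the WT libraries lay below the KO libraries and overlapped with Tg. Ppargc1a fell in Tg against KO with a log2 fold change of -1.29 (SE 0.31, edgeR adjusted p = 0.0346). The call was lost without any of the KO libraries 1 to 3 or Tg libraries 1 to 3 (adjusted p = 0.0665 to 0.128), with the replicate block (0.072) and with 1 surrogate variable (0.0811). KO against WT gave 0.78 (SE 0.31, edgeR adjusted p = 0.665), and Tg against WT -0.51 (SE 0.29, edgeR adjusted p = 0.334).

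Gabpb2, a beta subunit of the ETS factor GABP, fell slightly in Tg against WT, from 207, 200, 193 and 188 CPM to 149, 161, 165 and 179. The groups did not overlap, and the log2 fold change was -0.27 (SE 0.068, edgeR adjusted p = 0.0476). This call stands at the limit: it was lost with the replicate block (adjusted p = 0.147), with only the groups compared (0.107), with 1 surrogate variable (0.0925), with no filter (0.0886), with RLE size factors (0.0562), library totals (0.053) and limma-voom (0.052), and without any single library but Tg replicate 4 (0.06 to 0.141). DESeq2 kept it (0.00741). Its KO libraries were at 191, 180 and 179 CPM.

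Several members have near-identical copies elsewhere in the genome, which bears on how reads are assigned. Of the 80 main transcripts, 22 had a pseudogene copy of at least 95% identity over at least 150 bases in the GENCODE M21 transcripts, and the subunit g gene Atp5l had the most copies of any kind, 9. Complex II had none. Members with a pseudogene copy had a median level of 90.5 CPM per kb and those without one 68.1. How the counting treated reads that match several places is not given in the sources used here, so the levels of these members are uncertain.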

How the data were processed

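RNA of LSK cells from individual mice was sequenced as paired reads. Per the submitters' processing notes, FastQC, Trimmomatic, STAR, HTSeq and the mm10 genome were used; the notes give no versions, gene annotation or strand setting. The authors deposited raw counts per gene symbol, 1 column for each of the 11 libraries. Depth was 20990446 to 45632018 counts per library, so that 3 counts correspond to about 0.1 CPM.

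From these counts, filterByExpr, TMM scaling and edgeR 4.0.16 (R 4.3.3; glmQLFit and glmQLFTest, all 11 libraries, 3 groups, no covariate) were run on 17183 genes, with Benjamini-Hochberg adjustment over all of them and a limit of 0.05. CPM of single libraries are TMM-normalised; the inclusion limit, Phf6, the marker sums and the copies use library totals. Log2 CPM used a prior count of 2. Standard errors are the log2 fold change divided by the square root of F. P-values reflect the spread between these libraries. Whether each library stands for a single mouse could not be checked, as several held both Xist and Y-linked counts.

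Annotation and lengths came from GENCODE M21 (GRCm38), matched for all 80 genes; promoters came from RefSeq, and copies from blastn 2.17.0. The scripts were tested on simulated data.

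Genes named are the called members, the members with the lowest p and the highest and lowest fold change in each complex, tissue isoforms, those nearest the limit, all of complex II, and, in each related list, called genes or the gene with the lowest p; 1 gene of the related lists is not reported here. Genes outside that rule, Gm10039 and 4930481A15Rik among them, and the printed sequences, were chosen after their values were seen. The members and all lists were chosen with earlier results of these data known. Alternatives were DESeq2 1.42.0, limma 3.58.1 (voom), RLE or no scaling, other filters, only the groups compared, a replicate block, 1 surrogate variable (sva 3.50.0), a transcript length correction, another membership or assignment to complexes, and leaving out each library.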

Additional observations from a re-analysis of the deposited data

Results flagged for a closer look

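The share of all counts that fell on the 80 genes was 0.841% in WT replicate 3 and 0.665% to 0.676% in the other 3 WT libraries, so that its gap to the nearest library took up 0.941 of the group's range. It was the 1 group with such a library among 86 groups examined; chance flags about 1 in 20. Shares were 0.737%, 0.776% and 0.807% in KO and 0.793%, 0.795%, 0.703% and 0.674% in Tg, so that WT replicate 3 exceeded every other library on this scale, while Tg replicates 1 and 2 exceeded it in mean log2 CPM.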

How the results depend on the processing

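Of 3634 values of named genes under the alternatives, 3573 kept their side of the limit, 23 became called and 38 lost the call; none reversed as a called value, and 161 changed sign without a call. Genes called in KO against WT (4) numbered 98 with DESeq2, 1 with limma-voom, 1 with only the groups compared, 1 with the replicate block, 2 with 1 surrogate variable and 1 to 4 with single libraries left out. In Tg against WT (846) they numbered 1912 with DESeq2, 358 with only the groups compared, 221 with the replicate block and 211 to 1076 without single libraries; in Tg against KO (978), 1922 with DESeq2, 303 with the replicate block and 287 to 1096. Members called were 0 to 0, 0 to 3 and 0 to 1 without single libraries, 2 in Tg against WT with DESeq2, and 0 in Tg against KO with the replicate block. The median over the 80 genes ranged from 0.096 to 0.24 in KO, 0.052 to 0.23 in Tg and -0.082 to 0.039 for Tg against KO without single libraries. For complexes I to V these ranges were, in KO, 0.095 to 0.23, 0.026 to 0.21, 0.083 to 0.26, 0.17 to 0.34 and 0.044 to 0.20; in Tg, 0.10 to 0.23, -0.06 to 0.13, 0.10 to 0.32, 0.11 to 0.30 and -0.014 to 0.15; and for Tg against KO, -0.053 to 0.053, -0.12 to -0.016, -0.042 to 0.12, -0.093 to 0.056 and -0.13 to 0.0089. With 1 surrogate variable the Tg against KO medians of complexes III and IV were -0.16 and -0.21, and 7 of 80 genes were above KO. Mean shares of counts without single libraries were 0.669 to 0.728% in WT, 0.757 to 0.792% in KO and 0.723 to 0.764% in Tg. The causes were not tested. The labels do not state that replicate numbers pair the samples. Deviations of 10 same-numbered pairs correlated at -0.245 to 0.096, which cannot settle the question in groups of 3 or 4 libraries. The stricter filter left 78 members. With a standard error near 0.14 per gene, differences of the size of the medians were not detectable for single genes.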

Other observations

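A pair of rows that share sequence with members had larger fold changes between genotypes than the members themselves. The antisense transcript 4930481A15Rik, which matches 191 bases of the Uqcr10 transcript at 95.812% identity, was at 5.56 to 11.8 CPM in WT and 5.10 to 7.80 in KO libraries but at 0.533 to 0.982 in Tg libraries. It fell by 3.49 on the log2 scale against WT (SE 0.30, edgeR adjusted p = 0.000211) and by 3.13 against KO (adjusted p = 0.000441), and both calls held in all refits run. Uqcr10 itself had a log2 fold change of 0.36 in Tg against WT (SE 0.19, edgeR adjusted p = 0.282).

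The processed pseudogene Gm10039 matches 411 bases of Atp5g1 at 99.757% identity. It was at 0.033 to 0.353 CPM in WT, 0.022 to 0.509 in KO and 1.47 to 2.80 in Tg libraries, and rose in Tg against WT with a log2 fold change of 3.47 (SE 0.77, edgeR adjusted p = 0.03). The call was lost with the replicate block, with 1 surrogate variable and without WT replicate 1 or 2 or Tg replicate 1 or 2 (adjusted p = 0.0654 to 0.0839). Atp5g1 itself had a log2 fold change of 0.23 in Tg against WT (SE 0.13, edgeR adjusted p = 0.341). Further rows bear pseudogene names of members. Ndufa12-ps was at 1.563 to 3.437 CPM in WT, 3.685 to 4.032 in KO and 4.077 to 9.268 in Tg libraries. Ndufs5-ps was at 4.136, 0.645, 0.835 and 4.097 CPM in WT replicates 1 to 4, where Ndufs5 itself was at 4.70, 9.07, 11.5 and 5.56. How reads were split between such rows and the members was not tested. Ndufb1-ps was at 31.6 to 47.5 CPM over the libraries, a range that holds the median of the complex I genes, 43.4 CPM. Its name marks it as a pseudogene of a complex I subunit, and the symbol rule leaves it out. Whether it is a pseudogene or a working subunit gene was not tested.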
